A study of Arabidopsis thaliana with 4 samples.

Results

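The 49 Arabidopsis thaliana genes described here encode parts of the spliceosome and of the machinery that handles capped and spliced transcripts: snRNP proteins, Sm and LSm ring proteins, U2AF subunits, the MOS4-associated complex, the nuclear cap-binding complex, the exon junction complex and nonsense-mediated decay factors. They were taken from a fixed list of gene identifiers, and all alternative splicing events that the authors' deposited table gives for them were collected. Of the 49 genes, 23 had at least 1 event and 26 had none. Having no event means only that none was listed. The read minimum for listing is unknown, so absence of alternative splicing in these genes is not shown. Together the 23 genes held 102 of the 14133 events, which lie in 5268 genes in all. Polyadenylated RNA was sequenced from 14-day-old seedlings of the Landsberg erecta (Ler) and Columbia (Col) ecotypes, laboratory strains with different genome sequences. Ler is known to carry the erecta mutation, induced in a Landsberg background. The plants grew on sucrose plates in short days (8 h light) at 22 °C, untreated, and the labels name no transgene. The labels give 2 Ler and 2 Col samples and call the tissue the first leaf, while their extraction text names shoots. The table holds no expression levels, so the tissue could not be checked against markers.

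The spliceosome is built from small nuclear RNAs and their proteins. The U1 snRNP pairs with the donor (5' splice site), U2AF and SF1 mark the acceptor (3' splice site) and the branch site, the U2 snRNP replaces SF1, and the U4/U6.U5 tri-snRNP brings the catalytic core. After splicing, the exon junction complex stays on the transcript, and a stop codon well upstream of such a junction is a known trigger of nonsense-mediated decay. Genes for splicing factors are themselves often alternatively spliced in plants.

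Each event has 1 inclusion level per ecotype, a percentage that pools that ecotype's samples. It stands for the longer form: the intron kept, the exon included, or the splice site that lengthens the exon. The reads behind a level and the spread between samples are unknown, and no error can be attached to the values below. Differences are Ler minus Col in percentage points. An event is called marked where the authors' deposited table gives it a direction. In the whole table marks occurred only where q was under 0.05 and the ecotypes were over 10 points apart. All coordinates and sequences are of the Col reference, TAIR10.

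Sequences of 3 sets of sites and exons are shown first. The first set is the tandem acceptors, pairs of acceptors 3 bp apart, because their use adds or drops 1 codon without changing the frame. There were 5 among the 31 alternative 3' site events of the listed genes, against 518 among 4026 in the whole table. In the lines below, each written 5' to 3', capitals mark the last 2 bases of the intron at each acceptor.
AT1G15280 (chr1:5253532-5253554, plus strand): catttgatacacAGcAGaggatg
PRP40A (chr1:16976257-16976279, plus strand): agacccttttccAGcAGtttcgg
AT1G60900 (chr1:22425910-22425932, plus strand): actactttacctAGcAGgccagg
SUA (chr3:20075706-20075728, plus strand): tgcgtgtgttgtAGcAGccaacc
AT5G17440 (chr5:5752610-5752632, plus strand): ctccttttcaccAGcAGgctatt
All 5 had the letters AGCAG across the pair, read on the strand of the gene. These letters stood at 268 (51.7%) of the 518 tandem acceptors in the table.

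The second set is a pair of cassette exons, exons that are either included or skipped, in UNE6 and AT5G17440. Both genes encode relatives of LUC7, a U1-associated protein that in yeast helps to choose the donor. The exons lie at chr3:788956-788993 and chr5:5752624-5752673, both on the plus strand. Capitals mark the longest run that the exons share, which has 19 bases.
UNE6, 38 bp: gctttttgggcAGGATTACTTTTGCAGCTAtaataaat
AT5G17440, 50 bp: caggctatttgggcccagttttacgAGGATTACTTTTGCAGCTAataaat
The 3 bp acceptor pair of AT5G17440 shown above is the acceptor of its exon, so the exon also occurs with 47 bp. The host intron begins after codon 359 of the 480 codons of UNE6 and after codon 281 of the 404 codons of AT5G17440.

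The third set is the splice sites of the marked events and a donor that lacks the usual GT. The donor of the marked intron of AT1G15280 (chr1:5254831-5254850, plus strand) holds the first stop codon that is read when the intron is kept, shown in capitals.
AT1G15280 donor: gacatggTAAgctagctcct
In the next lines capitals mark the first 2 or last 2 bases of the intron.
AT1G15280 acceptor of the same intron (chr1:5255168-5255187, plus strand): tatatgattggcAGgatgcc
MEE5 acceptor of the cassette exon (chr1:1900283-1900302, plus strand): ctggttgattctAGcttttt
MEE5 donor of the cassette exon (chr1:1900424-1900443, plus strand): tttgtgGTaatgcactcatt
SUA donor of the 97 bp intron (chr3:20073300-20073319, plus strand): tttcagGCttgtttctctga
Ends were counted once per event, so an interval shared by several events counts repeatedly. Of the 102 events of the listed genes, 101 had GT-AG ends and this SUA intron had GC-AG ends. Counted likewise, GT-AG ends were found in 95.1% and GC-AG ends in 2.15% of 14036 intervals in the table.

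Few of these events were marked. Of the 102 events 3 were marked (2.94%), against 7.46% of all events. They lay in 2 of the 23 genes with events, against 13.5% of all genes with events, and in 2 of 43 stretches of overlapping intervals, against 9.77% of all such stretches. Marks higher in Ler were 2, both of 1 exon of MEE5 (3.38% of all events carry such a mark). The mark higher in Col was 1, of an intron of AT1G15280 (4.08% of all events). A q value under 0.05, whatever the difference, was given for 8 events (7.84%), against 14.3% of all events. These were the 3 events of MEE5, 2 introns of AT1G15280, 2 acceptor choices of PRP40A and 1 intron of SUA. Both q under 0.05 and at least 10 points were reached by 4 events, against 8.41% of all events. At least 10 points, whatever the q, were reached by 16 events, against 23.8% of all events, and at least 20 points by 4, against 9.82%. The median absolute difference was 4.63 points, with quartiles at 1.22 and 7.89, against a median of 3.78 points over all events, with quartiles at 1.20 and 9.46. Ler had the higher level in 50 events and Col in 52. Neither these shares nor the medians were tested, since the genes were chosen with earlier results of these data known and events of 1 gene are not independent.

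**Figure D1:**
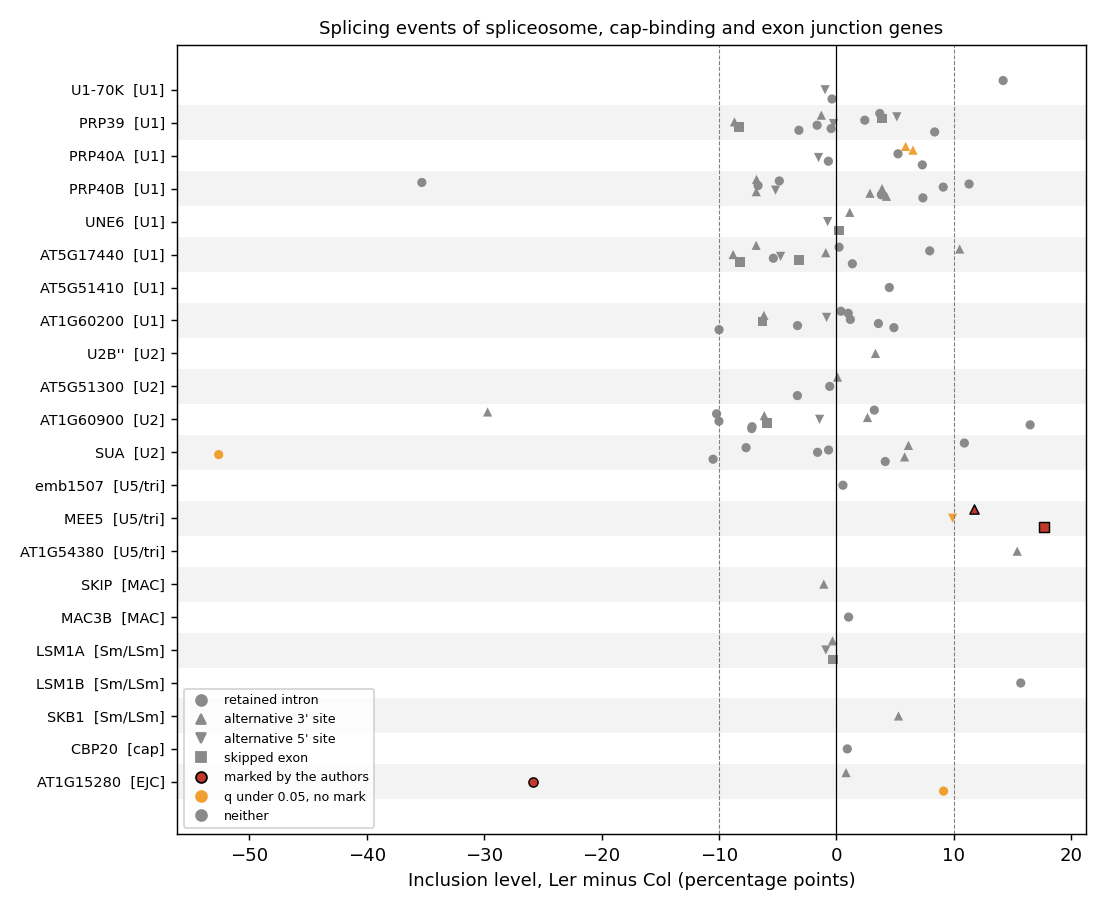
Difference in inclusion level, Ler minus Col in percentage points, for 99 events of 22 genes, by gene and with the role of the gene in brackets. Symbols give the event type, and dashed lines stand at 10 points. The 3 marked events lie in MEE5, at 11.7 and 17.7 points, and in AT1G15280, at -25.8 points, while the largest difference drawn, -52.6 points in SUA, carries no mark.

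The 102 events fall into 43 stretches of overlapping intervals, so many describe the same choice of sites. By type there were 51 retained introns (50%, against 52.4% of all events), 31 alternative 3' sites, 11 alternative 5' sites and 9 skipped exons. The 23 genes held a mean of 4.43 events per gene, against 2.68 over all genes, and a median of 3, against 2. PRP40B had the most, with 13, followed by PRP39 with 12 and AT1G60900 and AT5G17440 with 11 each. Of the genes with events 20 have several annotated transcripts and 3 have 1, while of the genes without events 8 have several and 18 have 1. The largest annotated number of introns had a median of 8 in genes with events and 6.5 in genes without.

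Levels that showed a mixture of forms in both ecotypes were about as frequent among these events as among all events. In 50 events (49.0%, against 46.0% of all events) the level lay between 10 and 90% in Ler and in Col. In 21 events (20.6%, against 23.2%) it was at least 90% in both, and in 10 (9.80%, against 10.3%) at most 10% in both. The coding span of a gene is the stretch from its first to its last coding base. The alternative segment lay within it in 85 events (83.3%, against 81.3% of all events). It lay on the 5' UTR side in 9 and on the 3' UTR side in 8.

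The exon junction genes gave the event with the smallest q value of the 102. AT1G15280 encodes a protein of the CASC3/Barentsz family, which binds eIF4A-III, the core helicase of the exon junction complex. Its 345 bp intron (chr1:5254837-5255181) was listed at 0 in Ler and at 25.8% in Col. This was the marked event (q 1.85e-19 in the authors' deposited table), and the interval was 345 bp long in both genomes. The listed 0 gives no limit, because the number of reads is unknown. A second intron of the gene, of 286 bp (chr1:5255901-5256186), had the higher level in Ler, at 21.6% in Ler and 12.5% in Col. Its q value was 0.0161 in the authors' deposited table, but its difference of 9.13 points was below 10 and it was not marked. At the tandem acceptor shown above the level of the upstream acceptor was 56.7% in Ler and 55.9% in Col. The 2 introns of the gene thus had opposite signs while the acceptor pair differed by 0.823 points. The nearest gene, on the other strand, lies 6 bp from AT1G15280, and its part in these values was not tested. Y14, MAGO and EIF4A-III, the other exon junction genes, had no event.

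The tri-snRNP genes gave the other marks. MEE5, also named CLO or GFA1, is the plant counterpart of the U5 GTPase Snu114 of yeast. A 133 bp exon on its 5' UTR side (chr1:1900297-1900429) was included at 27.6% in Ler and 9.88% in Col by the skipped exon event (q 3.82e-06 in the authors' deposited table, marked). The 3' site event of the same exon was at 16.7% in Ler and 5.0% in Col (q 0.000484 in the authors' deposited table, marked). The 5' site event was at 15.3% in Ler and 5.39% in Col (q 0.0050 in that table), and with 9.90 points it missed the mark. All 3 events compare the same exon with the same skipping junction, so they are 1 difference recorded 3 times. The intron that holds the exon is 405 bp long in Ler and 404 bp in Col. The exon lies before the start codon and the protein of 987 codons was the same in both forms. AT1G54380, annotated as a spliceosome protein-like protein, had 1 event, a 3' site in an 877 bp intron at 41.2% in Ler and 25.8% in Col without a mark (q 0.259 in the authors' deposited table). An intron on the 3' UTR side of emb1507, the U5 helicase known as BRR2, was listed as retained at 99.3% in Ler and 98.7% in Col. All 5 events of this group were higher in Ler, but 3 of them are the MEE5 exon and emb1507 differed by 0.560 points. Over all events 48.4% were higher in Ler. SUS2, the PRP8 scaffold of the catalytic core, emb1220 and EMB2770 had no event.

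The levels of skipped exons run above those of their junctions, as the MEE5 values show. For each of the 9 skipped exons in the listed genes the table also has a 3' site event for the junction upstream of the exon and a 5' site event for the junction downstream. The odds of a level are the level divided by 100% minus the level. In all 9 the odds of the skipped exon level equalled the sum of the odds of the site events, within 0.01 points in both ecotypes. The same held for all 570 skipped exons in the table that have both site events, of 571. Such a sum arises when the reads of both inclusion junctions are added and set against those of 1 skipping junction. With the mean of both odds in place of the sum, the exon of MEE5 was at 16.0% in Ler and 5.20% in Col, a difference of 10.8 points in place of 17.7. These sets of a skipped exon and its site events made up 26 of the 102 events (25.5%), against 11.3% of all events.

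**Figure D2:**
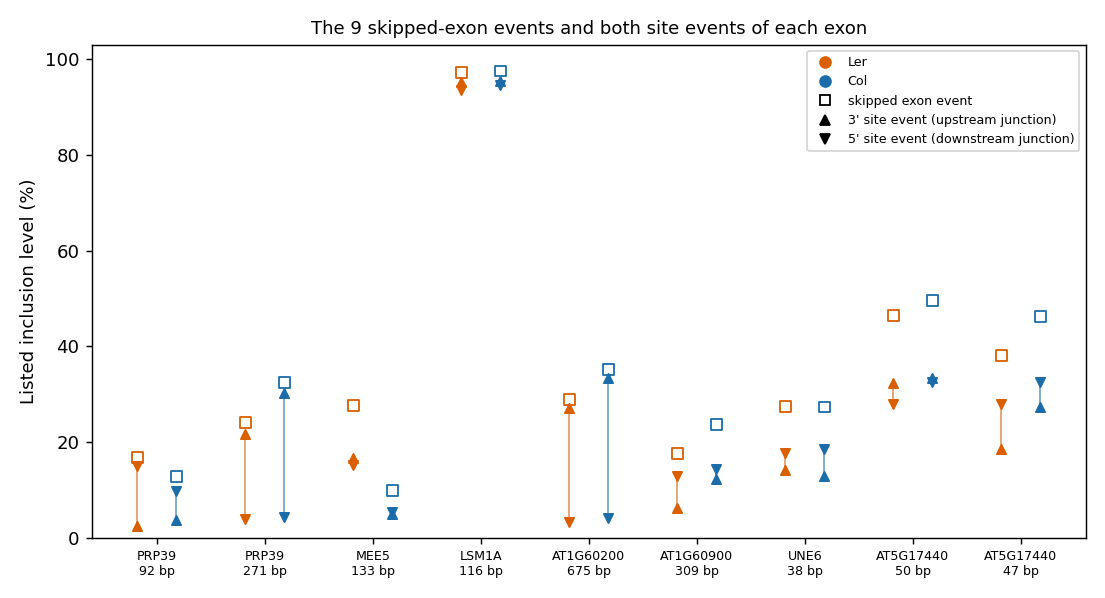
Listed inclusion levels of the 9 skipped exon events of the listed genes in Ler and Col, with the levels of the 3' site and 5' site event of the same exon joined by a line. The squares lie above both triangles in every exon. The triangles nearly coincide in MEE5 (16.7 and 15.3% in Ler, 5.0 and 5.39% in Col) and lie far apart in AT1G60200 (27.2 and 3.28% in Ler, 33.3 and 4.11% in Col).

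The site events of 1 exon were close to each other in MEE5, LSM1A, UNE6 and the 50 bp exon of AT5G17440 but not everywhere. For the 675 bp exon of AT1G60200 the upstream junction was at 27.2% in Ler and 33.3% in Col, and the downstream junction at 3.28% in Ler and 4.11% in Col. For the 271 bp exon of PRP39 the upstream junction was at 21.7% in Ler and 30.3% in Col, and the downstream junction at 4.0% in Ler and 4.25% in Col. The order was the reverse for the 92 bp exon of PRP39. Its upstream junction was at 2.48% in Ler and 3.76% in Col, and its downstream junction at 14.9% in Ler and 9.71% in Col. For these exons the skipped exon level does not describe an exon that is joined on both sides equally often.

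U1 proteins and their partners held more than any other group, with 59 of the 102 events in 8 of 10 genes. None of the 59, which lie in 18 stretches of overlapping intervals, was marked. Of all events 7.46% are marked, and of all stretches 9.77%. U1-70K binds the U1 snRNA and is a known target of alternative splicing in plants. Its 909 bp intron (chr3:18827440-18828348) was listed as retained at 18.6% in Ler and 19.0% in Col. A donor inside this intron was used at 25.2% in Ler and 26.1% in Col. Both levels were thus within 1 point between the ecotypes. The donors, with the first 2 intron bases in capitals, read as follows on the minus strand.
U1-70K donor of the 909 bp intron (chr3:18828335-18828354): aaacggGTaggttattctga
U1-70K inner donor (chr3:18827539-18827558): ataaagGTtgcctgccttat
The short interval that follows the inner donor, of 113 bp, was listed at 48.2% in Ler and 34.0% in Col, without a mark (q 0.118 in the authors' deposited table). The form that keeps the intron and the form with the inner donor both reach a stop after 204 codons, where the spliced form has 427.

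PRP39 and PRP40 proteins are U1 components known from yeast. PRP39 had 12 events in 2 stretches and none had a q value under 0.05, against 14.3% of all events. Its largest difference was at the upstream junction of the 271 bp exon, at 21.7% in Ler and 30.3% in Col (q 0.0593 in the authors' deposited table). PRP40A had 6 events, 4 of them above 90% in both ecotypes. At its tandem acceptor the level was 6.52% in Ler and listed at 0 in Col (q 0.0281 in the authors' deposited table), in an intron of 291 bp in Ler and 308 bp in Col. A 3' site on its 5' UTR side was at 99.2% in Ler and 93.3% in Col (q 0.0298 in that table). Neither difference reached 10 points. An intron close to the end of the coding span, of 75 bp, was listed at 36.4% in Ler and 29.1% in Col.

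PRP40B, with 13 events in 6 stretches, had no q value under 0.05, against 14.3% of all events. In 1 stretch all 3 events were listed at 0 in Ler. These were the 195 bp intron (4.86% in Col), a 13 bp step of its acceptor (6.80% in Col) and the interval of 182 bp that ends at the inner acceptor (35.3% in Col). Their q values in the authors' deposited table were 0.221, 0.0886 and 1.00. The other 10 events differed by 2.86 to 11.3 points.

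Among the LUC7 relatives no q value was under 0.05, against 14.3% of the q values of all events. The 11 events of AT5G17440 lie in 2 stretches and the 3 of UNE6 in 1. The UNE6 exon had 27.5% in Ler and 27.3% in Col as a skipped exon event, and the mean of its junction odds gave 16.0% in Ler and 15.8% in Col. The 50 bp exon of AT5G17440 was at 46.4% in Ler and 49.6% in Col as a skipped exon event, or 30.2% in Ler and 33.0% in Col by the mean of the odds. At its tandem acceptor the upstream site was at 66.7% in Ler and 56.1% in Col (q 0.645 in the authors' deposited table). Inclusion of the exon shifted the frame in both genes: the stop came after 376 codons in UNE6, where the skipped form has 480, and after 302 codons in AT5G17440, where it has 404. AT5G51410, the remaining LUC7 relative, had only an intron on its 3' UTR side, listed at 94.6% in Ler and 90% in Col. AT1G60200, an RNA-binding protein with a PWI domain, had 10 events in 1 intron of 1077 bp, and its largest difference was 9.99 points. U1A and AT4G03120, a zinc finger protein annotated in the files' reference without a symbol, had no event.

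Genes for branch site and acceptor recognition held 24 events in 10 stretches, none marked, against 7.46% of all events. SUA, an RNA-binding protein first found as a suppressor of an abi3 mutant, had 9 events in 7 stretches. The 147 bp interval that ends at the upstream acceptor of its tandem pair was listed as retained at 30.8% in Ler and 83.3% in Col, a difference of -52.6 points. Its q value was 0.0371 in the authors' deposited table, and it was the only event of the 102 that passed both limits, q under 0.05 and over 10 points, without a mark. There were 135 such events in the table. The 150 bp interval that ends at the downstream acceptor was at 5.32% in Ler and 15.8% in Col (q 0.154 in the authors' deposited table). The upstream acceptor itself was used at 8.25% in Ler and 2.44% in Col (q 0.342 in that table). The upstream acceptor was thus the less used in both ecotypes, and the 147 bp interval is the intron of that less used acceptor. A 39 bp step at an acceptor on the 5' UTR side of SUA was at 97.0% in Ler and 90.8% in Col. The remaining 5 introns of SUA were between 10.1 and 73.1% in Ler and between 5.94 and 62.3% in Col, and none was marked. The intron with the GC donor was the highest of these, at 73.1% in Ler and 62.3% in Col.

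AT1G60900 encodes a U2AF large subunit, which binds the pyrimidine tract before the acceptor. All 11 of its events lie in 1 intron of 630 bp (chr1:22425297-22425926). This intron was listed as retained at 21.2% in Ler and 31.2% in Col (q 0.0895 in the authors' deposited table). A 309 bp exon inside it was at 17.6% in Ler and 23.6% in Col as a skipped exon event. The 3' site event with the largest difference, 63.2% in Ler and 92.9% in Col, compares an acceptor within the intron with the upstream acceptor of the tandem pair (q 0.0699 in the authors' deposited table). That upstream acceptor was used at 3.19% in Ler and 0.538% in Col, the smallest level of the gene in each ecotype. Of the 11 events 8 were lower in Ler. ATU2AF65A, the other U2AF large subunit, and the small subunits ATU2AF35A and U2AF35B had no event.

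**Figure D3:**
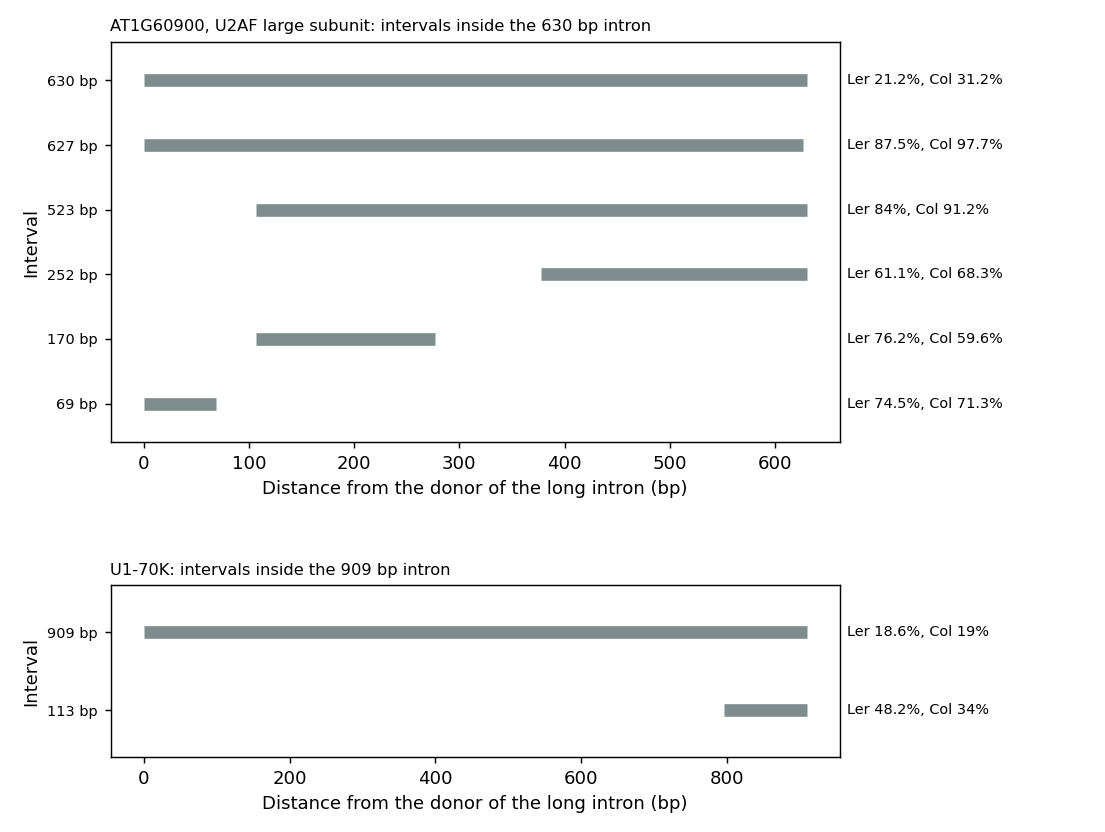
Intervals with a retention event inside the 630 bp intron of AT1G60900 and the 909 bp intron of U1-70K, drawn to scale from the donor in bp, with the listed level in Ler and Col beside each bar. The full introns have the lowest levels (21.2% in Ler and 31.2% in Col, and 18.6% in Ler and 19.0% in Col), and every inner interval drawn has a higher one.

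The other members of this group had differences of at most 3.33 points. AT5G51300, the SF1 branch site protein, had 3 events on its 3' UTR side, in an interval of 685 bp in Ler and 686 bp in Col. Its 3' site event was at 96.9% in Ler and 96.8% in Col, the 581 bp interval at 6.72% in Ler and 10% in Col, and the 686 bp interval at 94.6% in Ler and 95.1% in Col. U2B'', a U2 snRNP protein, had a 35 bp step at an acceptor, at 98.7% in Ler and 95.4% in Col. U2A' had no event.

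Sm, LSm, MOS4-associated and cap-binding genes had few events, and none of these was marked, against 7.46% of all events. LSM1A and LSM1B encode the ring subunit specific to the cytoplasmic LSm complex, which acts in decapping. LSM1A skipped a 116 bp coding exon rarely, with 97.2% inclusion in Ler and 97.5% in Col, and the skipped form stops after 86 codons where the full form has 128. LSM1B had a 110 bp intron on its 5' UTR side at 88.0% in Ler and 72.3% in Col (q 0.0535 in the authors' deposited table). SKB1, the arginine methyltransferase that acts on Sm proteins, had a 6 bp step at an acceptor at 95.5% in Ler and 90.2% in Col. The Sm genes AT4G02840, SmD3 and AT1G20580 and the LSm genes SAD1, LSM8 and emb1644 had no event.

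In the MOS4-associated complex, which activates the spliceosome, SKIP had a 3' site on its 5' UTR side at 8.55% in Ler and 9.63% in Col. MAC3B, a PRP19-type ubiquitin ligase, had an intron on its 3' UTR side at 96.3% in Ler and 95.2% in Col. MAC3A, its close relative, and PRL1 and CDC5 had none. CBP20, the cap-contacting subunit of the cap-binding complex, had a 95 bp intron on its 5' UTR side at 5.97% in Ler and 5.04% in Col, and its partner ABH1 and SE had none. Of the decay factors, LBA1, the UPF1 helicase, AT2G39260, which is UPF2, and UPF3 had no event, although LBA1 has 28 annotated introns.

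Introns free of any overlapping event give the plainest retention levels, since no other junction of the table lies over them. There were 14 among the listed genes, in 9 genes. Their median level was 45.3% in Ler and 49.5% in Col, against 26.5% in Ler and 27.0% in Col for 3542 such introns in the table. Ler was higher in 10 of the 14 and Col in 4, against 1766 and 1760 of such introns in the table. Several of the 14 lie in the same gene, and the directions were not tested. The values ran from a listed 0 (AT1G15280) to 99.3% (emb1507) in Ler and from 4.17% (PRP40B) to 98.7% (emb1507) in Col. The high end is made of introns whose retained form is annotated, such as those of emb1507, MAC3B and AT5G51410.

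**Figure D4:**
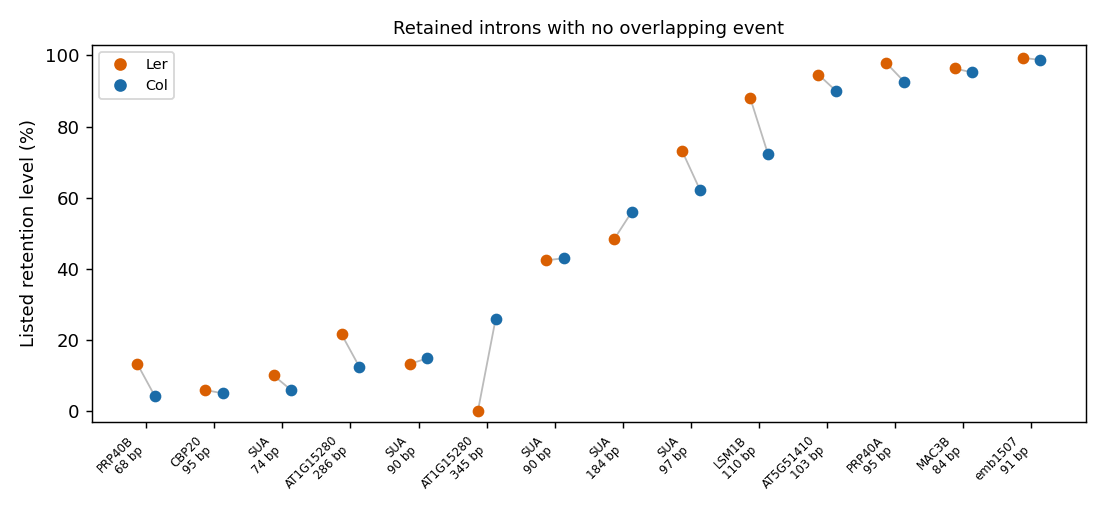
Listed retention level in Ler and Col of the 14 introns with no overlapping event, in order of the Col level. The 345 bp intron of AT1G15280 is listed at 0 in Ler and at 25.8% in Col, and LSM1B stands at 88.0% in Ler and 72.3% in Col.

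The reading frame was followed on the longest annotated coding sequence of each gene, and the form of the event that this sequence holds was compared with the other form. In all 17 retained introns that could be read the other form met an earlier stop codon. Over all genes this held for 87.4% of 3494 introns. In 16 of the 17 the coding sequence holds the spliced form. When the intron was kept, translation ran for 1 to 38 codons past the last whole codon of the upstream exon, with a median of 6. In AT1G15280 it ran for 1 codon in both introns. In 14 of the 16 the stop lay more than 50 bp upstream of the last junction. The exceptions, in PRP40A and SUA, lie after the last remaining junction. The 16 introns lie in 9 genes. Stop distances were not summarized over all genes, so the 14 cannot be called particular to the listed genes. For alternative 3' sites 12 of 18 events that could be read gave an earlier stop (66.7%), against 67.0% of 2569 over all genes. For alternative 5' sites it was 8 of 8, against 80.3% of 1067, and for skipped exons 7 of 7, against 70.6% of 309. Several of these events share an intron, and the differences from all genes were not tested.

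Other splicing genes are given for comparison, from lists drawn up beside the main one. A list of 34 further snRNP, Sm, LSm and complex genes had 24 events in 17 genes. Of these events 3 were marked (12.5%), against 7.46% of all events. All 3 were for the same 73 bp exon of AT3G07590, a small nuclear ribonucleoprotein family protein, and were higher in Col. This exon was at 9.02% in Ler and 32.3% in Col as a skipped exon event (q 0.000298 in the authors' deposited table). Its 3' site event was at 4.31% in Ler and 19.2% in Col, and its 5' site event at 5.13% in Ler and 19.2% in Col. The 20 SR protein genes had 97 events in 17 genes, and 8.25% of these were marked, close to the share over all events. These were 8 events in 3 genes, all higher in Col. The median absolute difference was 5.06 points in the 34 genes and 2.72 points in the SR genes. The lists were not tested against each other.

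Of the 49 genes, 41 lie within 500 bp of another annotated gene and 15 overlap one, 6 of these with events. No source used here says whether the library kept strand, and reads of overlapping neighbours cannot be told apart. MEE5 is 713 bp from its nearest gene.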

How the data were processed

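The analysis used 1 table of alternative splicing events in 2 Ler and 2 Col samples. The deposited inclusion level is a fraction between 0 and 1, with 1 value per ecotype, per the file headers. Fractions were multiplied to percent. The last column is the authors' own text cell, with a sign for the direction and a q value, per the file headers. Per the submitters' processing notes, TopHat and the build TAIR10 were used, with no version stated. The sources used here do not state how samples were pooled, which read minimum applied, whether samples were separate plantings or which test gave q, and the depth is unknown. A count test over samples was planned for counts and did not apply to fractions, so the authors' marks are described.

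Interval coordinates in the table include 1 exon base on each side: after removing it, 8614 of 14036 intervals equalled an annotated intron of their gene, and 0 did before. Lengths here are of the inner interval. Genes, coding sequences and splice sites came from RefSeq's annotation of TAIR10, where 5252 of 5268 genes matched and all 49 listed genes did. Reading frames were followed from the annotated start codon in both forms. The scripts were tested on simulated data. Python 3.11.15, pandas 2.3.3, numpy 2.4.6 and matplotlib 3.10.9 were used.

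Members and lists were chosen with earlier results of these data known, so no test over the list was made. Named genes were those with a mark or q under 0.05, up to 4 per role group by the largest difference, and the gene with most events. PRP39, UNE6 and AT5G51410, the list member AT3G07590 and the sequence sets were added after values were seen. Alternatives were other limits on q and difference, 1 event per gene, and sets without levels of 0, without other lengths in Ler or without genes near others. The values of 1 listed gene are not reported here, though counts over the list include it.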

Additional observations from a re-analysis of the deposited data

How the results depend on the processing

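Of the 102 events 3 were marked, in 2 genes. With q under 0.05 alone the counts were 8 events in 4 genes, and with at least 20 points whatever the q there were 4 events in 4 genes (9.82% of all events have such a difference). The counts were 4 events in 3 genes with q under 0.05 and at least 10 points. Without intervals of another length in Ler 1 mark remained in 1 gene, because MEE5 is left out (1.08% of the events, against 5.73% of all events so chosen). Without levels of 0 only MEE5 remained, 1 gene (2.06% of events, against 6.85%). With 1 event per gene 1 was marked (4.35%, against 6.76%). The wider list with 34 further genes had 6 marked events, where 7.46% of all events are marked. Of these, 3 came from the 24 events of the further genes, all of 1 exon of AT3G07590. Without genes within 500 bp of another gene 5 genes with events were left, 1 of them marked (6.90% of their events, against 7.19% of all events so chosen), and their median absolute difference was 6.67 points, against 3.78. Counting each stretch of overlapping intervals as 1 gave 2 (9.77% of all such stretches are marked), and skipped exons by mean junction odds left 3; both were chosen after seeing the data. The median difference, -0.270 points, changed sign to 0.0972 without levels of 0, to 1.14 with 1 event per gene and to 0.928 without genes near others; the cause was not tested. The share of retention stayed between 43.5 and 51.6%. On any coding sequence 20 of 22 retained introns met an earlier stop. No paired analysis was possible because the table gives 1 pooled level per ecotype, and for the same reason no sample could be left out.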
